A study of Mus musculus with 2 samples.

Results

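The BCL2 family genes of mitochondrial apoptosis were examined in primary cultures, labelled as adipocytes, of mice that had or had not received pelvic irradiation. The family was represented by 10 genes, chosen by name among the 24091 genes of the table, and all 10 were present. Of these, 7 promote cell death, namely the effectors Bax and Bak1 and the BH3-only genes Bbc3, Pmaip1, Bid, Bad, and Bcl2l11, and 3 promote survival, namely Bcl2, Bcl2l1, and Mcl1. In the irradiated library Pmaip1 was 2.32-fold and Bcl2l1 1.47-fold higher than in the sham-irradiated library, Bax, Bid, and Mcl1 were higher by less, and the ratio of the summed pro-death to the summed pro-survival level was 1.70 and 1.66. Without the most abundant member of each class, Bax and Mcl1, that ratio was 4.72 and 3.73, and Bcl2l1 then made up most of the pro-survival sum. Without Bcl2l1 alone, a makeup chosen after the values were seen, the ratio was 2.06 and 2.12.

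The libraries were made from polyadenylated RNA of C57BL/6 mice, 1 library for each condition. The sham-irradiated group received no radiation, and the irradiated group received pelvic radiation, which the labels give as 7.5 Gy and 5 days without saying whether the dose was daily or total. In both groups gonadal fat was collected 2 months after radiation, dissociated with collagenase, and the floating cell fraction was cultured for 3 days. PBS is named in both titles with no further explanation, and the sources used here give neither the age nor the number of the mice behind each library. The comparison is the one the labels name, radiation against no radiation.

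Apoptosis through mitochondria is controlled by proteins that share short BCL2 homology (BH) regions. Bax and Bak1 encode the effectors that form pores in the outer mitochondrial membrane and release cytochrome c. The survival proteins BCL2, BCL-XL (Bcl2l1), and MCL1 hold effectors and activators in check. BH3-only proteins bind the survival proteins through a short helix, and some of them also activate the effectors directly. After DNA damage p53 is known to induce several pro-death members, among them Bax, Bbc3 (PUMA), and Pmaip1 (NOXA).

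The BH3 core lies in the helix through which pro-death members bind the survival proteins. Its coding bases are shown here because both sides of the balance carry the pattern. The pattern searched was a codon for leucine, 3 codons of any kind, a codon for glycine, alanine, or serine, and a codon for aspartate, in the principal coding sequence of each gene in the GENCODE annotation of GRCm38 (mm10). Of 21743 genes searched, 33.6% held the pattern somewhere, so a match alone does not mark the family. Each of the 9 members shown had 1 match, which lay inside a single coding exon. Capitals mark the 6 codons of the pattern, with 9 bases on each side, 5′ to 3′ on the coding strand.
Bax, chr7:45465997-45466032, minus strand, exon 3 of 6: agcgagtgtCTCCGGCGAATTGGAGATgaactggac
Bak1, chr17:27022531-27022566, minus strand, exon 4 of 6: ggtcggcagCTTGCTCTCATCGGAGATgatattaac
Bbc3, chr7:16313764-16313799, plus strand, exon 3 of 4: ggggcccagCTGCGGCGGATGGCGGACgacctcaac
Bid, chr6:120897289-120897324, minus strand, exon 4 of 6: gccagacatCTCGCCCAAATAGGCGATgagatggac
Bad, chr19:6950783-6950818, plus strand, exon 3 of 4: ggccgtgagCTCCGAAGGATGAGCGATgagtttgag
Bcl2l11, chr2:128147141-128147176, plus strand, exon 3 of 4: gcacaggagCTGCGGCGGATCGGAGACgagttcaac
Bcl2, chr1:106712575-106712610, minus strand, exon 1 of 2: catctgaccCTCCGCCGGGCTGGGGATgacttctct
Bcl2l1, chr2:152829697-152829732, minus strand, exon 2 of 3: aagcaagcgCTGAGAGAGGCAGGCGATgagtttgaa
Mcl1, chr3:95659427-95659462, plus strand, exon 1 of 3: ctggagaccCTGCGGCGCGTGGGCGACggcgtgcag
Among these cores the BH3-only genes Bbc3 and Bcl2l11 were the most alike, with 15 equal bases. The pair least alike was Bak1 and Bcl2l1, with 7 equal bases, and the core of Bcl2l1 shared 8 with those of Bax and Bbc3. The coding sequence of Pmaip1 held 2 matches, from residues 27 and 78 of 102, and it is not printed.

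The deposited values are log2 of FPKM plus 0.1, where FPKM counts the fragments on a gene per kilobase of its length and per 1000000 fragments of the library, and every level below is an FPKM. Whole-fragment steps of low genes gave totals of 30600000 (sham-irradiated) and 35000000 (irradiated) fragments. With 1 library per condition there was no test between conditions. A difference is the deposited log2 value of the irradiated library minus that of the sham-irradiated library. The interval beside it is that of the ratio of recovered fragments, without the added 0.1, by the exact 95% Clopper-Pearson method for a binomial share. It covers counting error only and not the spread between mice or cultures. A gene was kept when its FPKM reached 1 in either library, which left 11253 genes, all 10 members among them. Across the kept genes the median difference was 0.02, and the 5th and 95th percentiles were -0.27 and 0.46.

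Most marker genes of the labelled cell type were low. Of 7 adipocyte markers, 6 stayed under an FPKM of 1 in both libraries, among them Adipoq at 0.133 and 0.232, and Fabp4 was at 96.9 in both. Plin1, at 0.254 and 0.478 on 26 and 56 fragments, was the adipocyte marker whose interval excluded 0, from 0.22 to 1.64. Lep had 0 fragments in the sham-irradiated library, which allows an FPKM of up to 0.0301, and 2 fragments in the irradiated one. The 5 fibroblast and progenitor markers summed to 3491 without radiation and to 2785 after it, and 3 of them had an interval below 0. In the irradiated library 5 of 7 macrophage markers and 4 of 5 mesothelial markers were higher with an interval above 0, while Lyz2 and Wt1 were lower. The sums of those lists went from 567.3 to 595.5 and from 27.2 to 33.97, respectively. Most of each sum came from the marker named as lower, Lyz2 at 442.5 and 410.0 and Wt1 at 20.4 and 18.7. The median difference was 0.44 for the macrophage markers and 1.37 for the mesothelial markers. The 4 endothelial markers summed to 34.7 and 37.4, with 2 intervals above 0, and 4 of the 5 lymphocyte markers were under the filter. Ptprc, which all leukocytes express, was kept and had a difference of 0.28 (interval 0.17 to 0.40), and Cd79a, a B cell gene under the filter, had 29 and 8 fragments (interval -3.39 to -0.89). None of the markers of any list was without fragments in both libraries. The part of cell makeup in the differences below was not tested, and in bulk RNA fewer cells of a type cannot be told apart from less RNA per cell.

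The effectors were, with Mcl1, the most abundant members. Bax, on chromosome 7 from 45461695 to 45466898 (minus strand), had an FPKM of 38.2 on 1559 fragments in the sham-irradiated library. In the irradiated library it had 46.4 on 2167 fragments, a difference of 0.28 with an interval from 0.19 to 0.38. Bak1, on chromosome 17 from 27019812 to 27028626 (minus strand), had 35.2 and 36.4, a difference of 0.05 whose interval from -0.03 to 0.13 includes 0. Per length, the log2 ratio of Bax to Bak1 within a library was 0.12 (interval 0.03 to 0.21) without radiation and 0.35 (interval 0.27 to 0.43) after it. The gene model of Bax overlaps that of Gm45808 on the same strand over 915 bases. No value is given for Gm45808 under that name, and the sources used here do not say how such fragments were counted. Bak1 lies within the gene model of Ggnbp1 on the opposite strand, and Ggnbp1 had 4 fragments in each library.

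Among the members searched, Bax had a promoter window with a p53 decamer, and its sequence is shown for that reason. RefSeq windows of GRCm38.p6, 250 bases before to 50 after a gene start, were present for 9 members, all but Pmaip1, 15 windows in all. They were searched for the degenerate decamer that p53 binds as a pair, which reads as the same pattern on both strands. It occurred in 1 of the 15 windows, while 8.36% of all 32851 windows held it. In Bax it begins at position -201 from the gene start, in capitals below. This is a match of letters and not a binding site. The 3 windows of Bbc3, another known p53 target, held no match, which says only that these letters are not in those windows. Among the p53 reference genes compared further on, the window of Mdm2 and 1 window of Cdkn1a held the decamer. Another window of Cdkn1a did not, and the result for Trp53 was not read out.
Bax, chr7:45466899-45467148, minus strand: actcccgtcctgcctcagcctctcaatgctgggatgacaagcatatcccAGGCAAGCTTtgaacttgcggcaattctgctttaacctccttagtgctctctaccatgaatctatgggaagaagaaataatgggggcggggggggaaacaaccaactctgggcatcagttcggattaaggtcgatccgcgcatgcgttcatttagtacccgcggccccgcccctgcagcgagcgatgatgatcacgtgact

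**Figure D1:**
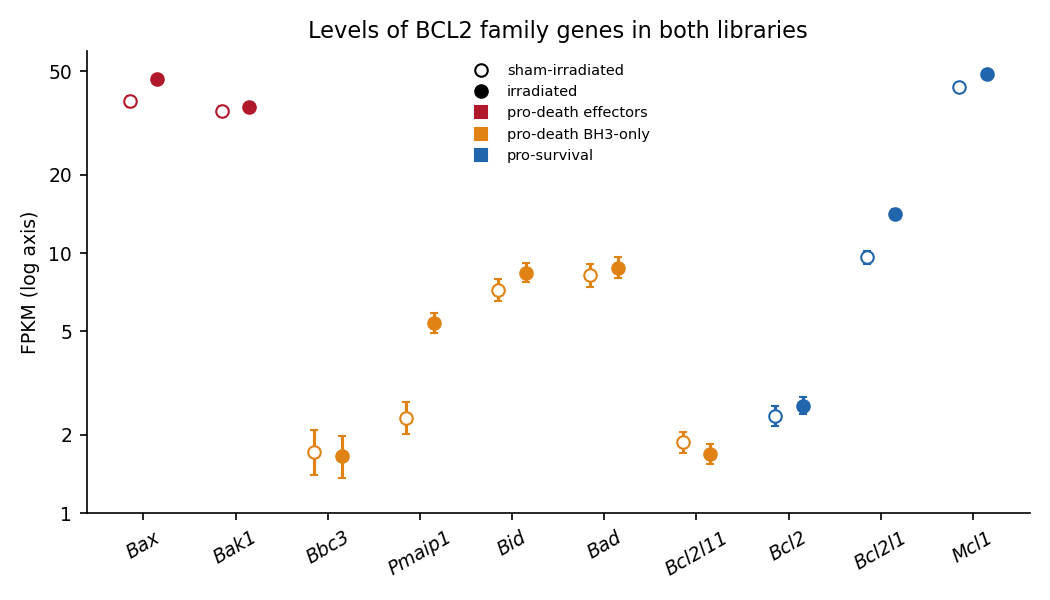
FPKM of the 10 members on a log axis, with open circles for sham-irradiated, filled circles for irradiated, bars for the exact 95% Poisson interval of the fragments, and colours for the class. The open and filled circles lie furthest apart for Pmaip1, at 2.33 and 5.40, and next furthest for Bcl2l1, at 9.61 and 14.1.

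The BH3-only genes did not move as a class. Pmaip1, which encodes NOXA, a partner of MCL1 that favours its degradation, had an FPKM of 2.33 on 189 fragments without radiation and 5.40 on 501 fragments after it. The difference was 1.18, with an interval from 0.97 to 1.46, and 53 of the 11253 kept genes had a difference at least as large. Pmaip1 lies on chromosome 18 from 66458604 to 66465558 (plus strand). Bbc3, which encodes PUMA, a BH3-only protein that p53 is also known to induce, had 1.73 on 104 fragments and 1.65 on 114 fragments. Its difference was -0.06, and the interval from -0.46 to 0.34 lies wholly below that of Pmaip1. A change of Bbc3 within that interval was not detectable at this depth.

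The intervals of the remaining BH3-only genes also lay below that of Pmaip1. Bid, on chromosome 6 from 120893119 to 120916820, encodes the link from death receptors to mitochondria once it is cleaved. Its FPKM was 7.21 and 8.41, a difference of 0.22 with an interval from 0.04 to 0.41. Bad, on chromosome 19 from 6941861 to 6951905, encodes a sensitizer that growth factor signalling silences by phosphorylation. It had 8.24 and 8.78, a difference of 0.09 with an interval from -0.11 to 0.29. Bad overlaps Gpr137 on the opposite strand over 620 bases, and Gpr137 had 235 and 304 fragments where Bad had 382 and 466; whether the counting used strand is not stated. Bcl2l11, on chromosome 2 from 128126038 to 128162547, encodes BIM, which is induced on loss of growth factors and by FOXO factors. Its FPKM was 1.87 and 1.69, and its difference of -0.14 had an interval from -0.34 to 0.05. The share of Pmaip1 in the summed BH3-only FPKM was 10.9% without radiation and 20.8% after it, while Bad went from 38.5% to 33.8% and Bid from 33.7% to 32.4%.

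All 3 pro-survival members had a higher value in the irradiated library, as did 53.5% of the kept genes. Bcl2l1, which encodes BCL-XL, was at 9.61 on 1356 fragments and at 14.1 on 2278 fragments. Its difference was 0.55, with an interval from 0.46 to 0.65, and 398 of the kept genes had a difference at least as large. Bcl2l1 lies on chromosome 2 from 152758732 to 152831728 (minus strand), and its gene model overlaps Cox4i2 on the opposite strand. Cox4i2 itself had 54 and 96 fragments, fewer than the 1356 and 2278 of Bcl2l1. Mcl1, which encodes a short-lived survival protein and lies on chromosome 3 from 95658721 to 95663178, was at 43.6 and 48.7, a difference of 0.16 with an interval from 0.10 to 0.22. Bcl2, the founding member of the family, on chromosome 1 from 106538176 to 106714290, was at 2.36 and 2.59, a difference of 0.13 with an interval from -0.03 to 0.30. Of the summed pro-survival FPKM, Mcl1 made up 78.5% without radiation and 74.5% after it, and Bcl2l1 17.3% and 21.6%.

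Of the 10 members, Pmaip1 and Bcl2l1 (2 genes) had a difference of 0.5 or more and 0 had one of -0.5 or less, where 4.31% of the kept genes were higher and 1.44% lower by that amount. The counting interval lay above 0 for 5 members and below 0 for 0, against 23.8% and 17.4% of the kept genes. A counting interval narrows with more fragments, so these counts depend on the level and length of genes as well as on their differences. The median difference of the members was 0.145, beside 0.02 for all kept genes. The 5 members with an interval above 0 came from each class, Bax among the effectors, Pmaip1 and Bid among the BH3-only genes, and Bcl2l1 and Mcl1 among the survival genes.

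**Figure D2:**
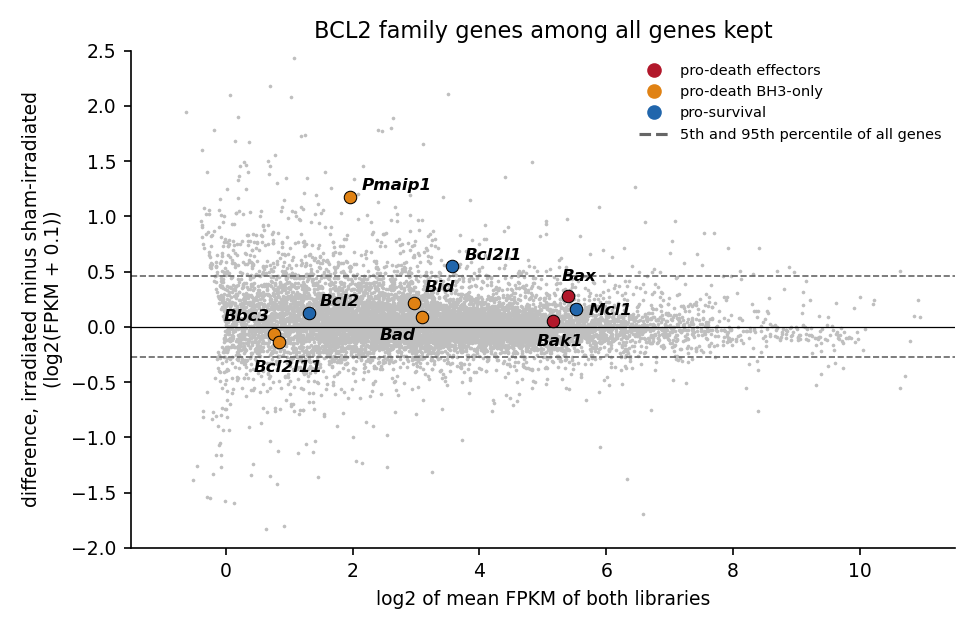
Difference between the libraries (log2(FPKM + 0.1), irradiated minus sham-irradiated) against the log2 of mean FPKM, with grey dots for the kept genes, coloured dots for the members, and dashed lines at the 5th and 95th percentiles, -0.27 and 0.46; 15 genes lie outside the axes. Pmaip1, at 1.18, and Bcl2l1, at 0.55, are the members above the upper line, and no member is below the lower one.

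**Figure D3:**
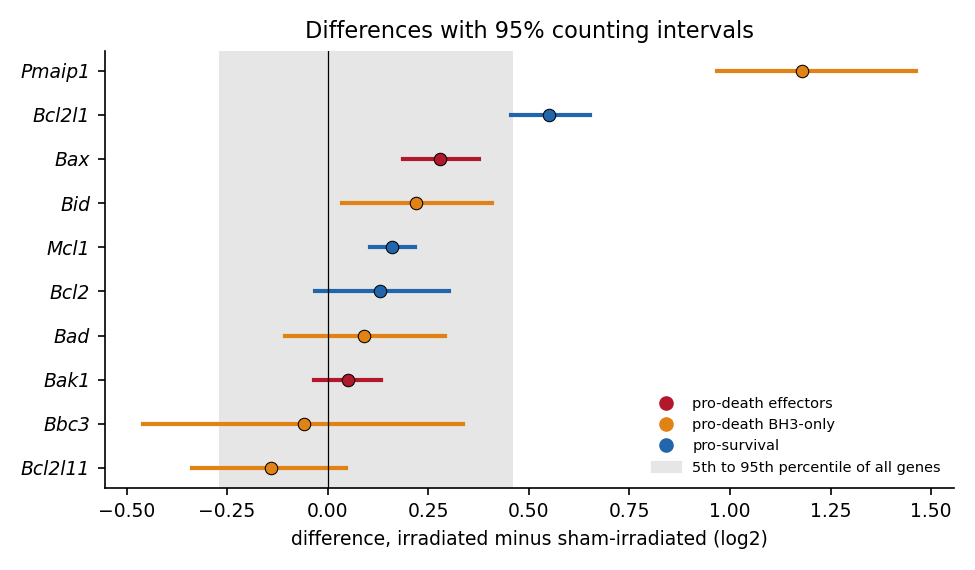
Difference of each member (dot, deposited log2 scale) with the exact 95% counting interval of its fragment ratio (line), ordered by size, over a grey band from the 5th to the 95th percentile of all kept genes. The lines of Pmaip1, Bcl2l1, Bax, Bid, and Mcl1 lie right of 0, and those of the other 5 members cross it.

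The order of the levels per length was the same in both libraries from the 1st to the 6th member, Mcl1, Bax, Bak1, Bcl2l1, Bad, and Bid. Mcl1 and Bax differed beyond counting error in the sham-irradiated library (log2 ratio 0.19, interval 0.11 to 0.27). Their ratio was 0.07 in the irradiated library, with an interval from -0.00095 to 0.14. That lower bound is smaller in size than the rounding error of a difference, up to 0.01, so whether they were apart there was not settled. Bad and Bid were not apart in either library, nor were Bcl2l11 and Bbc3. In the sham-irradiated library Pmaip1 was not apart from Bcl2, with a log2 ratio of Bcl2 to Pmaip1 of 0.02 (interval -0.22 to 0.27). In the irradiated library Pmaip1 stood above Bcl2 by a log2 ratio of 1.06 (interval 0.89 to 1.23). Among all kept genes, 88.5% had a lower level than Mcl1 in the sham-irradiated library and 10.6% a lower level than Bbc3, so the members spanned most of the range of expressed genes.

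The balance between the classes was compared as the FPKM summed over the 7 pro-death members divided by that summed over the 3 pro-survival members. The pro-death sum was 94.8 without radiation and 108.8 after it, a log2 change of 0.20. The pro-survival sum was 55.6 and 65.5, a log2 change of 0.24. The ratio was therefore 1.70 and 1.66, a log2 change of -0.04 with a counting interval (normal approximation) from -0.11 to 0.03. With the effectors alone the ratio was 1.32 and 1.27, and with the BH3-only genes alone 0.385 and 0.396, again with intervals that include 0. The direction of the latter rested on Pmaip1, since the other BH3-only genes, a makeup chosen after the values were seen, gave 0.343 and 0.314, a log2 change of -0.13 with an interval from -0.25 to -0.0018. The sums are dominated by Mcl1, Bax, and Bak1. Without the highest member of each class the log2 change was -0.34, with an interval from -0.45 to -0.23. In further makeups chosen after the values were seen, without Mcl1 the ratio went from 7.91 to 6.51, a log2 change of -0.28 with an interval from -0.38 to -0.18, and without Bcl2l1 it went from 2.06 to 2.12, a change of 0.04 with an interval from -0.04 to 0.12. Without Pmaip1 the change was -0.07, with an interval from -0.15 to -0.0017. That upper bound and the -0.0018 above are smaller in size than the rounding error of a difference, up to 0.01. Whether these intervals exclude 0 was therefore not settled. RNA ratios between genes do not give protein ratios.

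Ratios between single members moved in both directions. Each of 6 pro-death genes, which are Bax and the BH3-only genes without Bak1, was set against each of 3 survival genes, and the change of the ratio was taken as the odds ratio of fragments with its exact 95% interval. Of 18 pairs, 4 had an interval above 0, 7 below 0, and 7 an interval that included 0. The pairs share their members and are not independent. Relative to Mcl1, whose product NOXA binds, Pmaip1 went from a ratio of 0.0534 to 0.111, a log2 change of 1.05 with an interval from 0.80 to 1.31. The log2 change was 1.08 for its ratio to Bcl2 (interval 0.78 to 1.38) and 0.66 for its ratio to Bcl2l1 (interval 0.39 to 0.93).

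Relative to Bcl2l1 the other 5 of these pro-death genes each had a lower ratio in the irradiated library, with an interval below 0. The difference of Bcl2l1, 0.55, was larger than that of any of these 5 genes, so the lower ratios follow from it. The ratio of Bax to Bcl2l1 went from 3.98 to 3.29, a log2 change of -0.27 with an interval from -0.41 to -0.14. That of Bad to Bcl2l1 went from 0.857 to 0.622, a change of -0.46 with an interval from -0.68 to -0.24. The change was -0.70 for Bcl2l11 (interval -0.92 to -0.48), -0.62 for Bbc3 (-1.02 to -0.21), and -0.33 for Bid (-0.54 to -0.12). The ratio of Bax to Bcl2 was 16.2 and 17.9, a change of 0.15 with an interval from -0.05 to 0.34, and the 4th pair with an interval above 0, Bax to Mcl1, had a lower bound of 0.01, about the size of the rounding error of a difference. Bcl2l11 was the gene with an interval below 0 against all 3 survival genes, with log2 changes of -0.28 against Bcl2 and -0.31 against Mcl1.

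**Figure D4:**
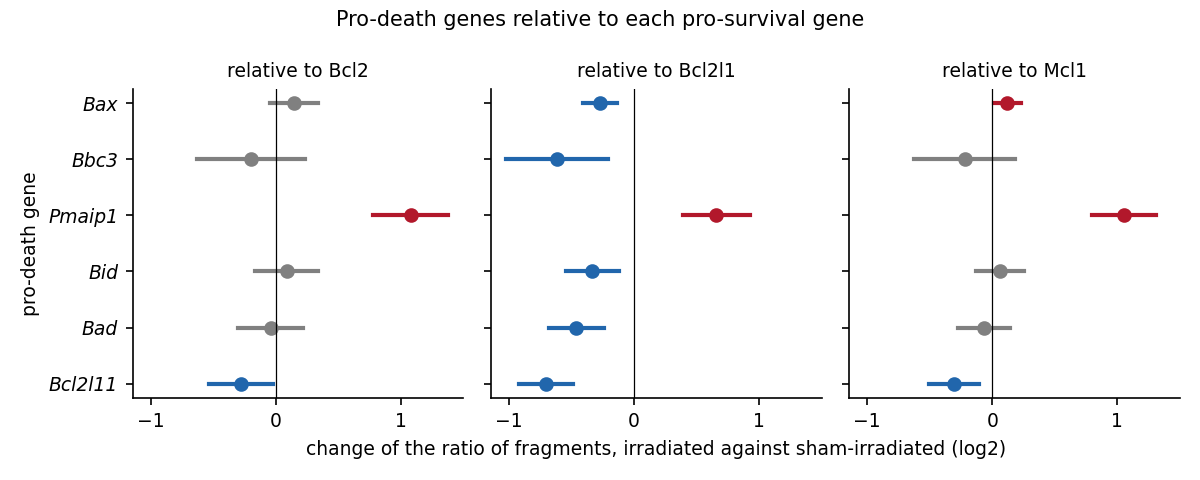
Log2 change of the ratio of fragments between a pro-death gene (rows) and a survival gene (panels), irradiated against sham-irradiated, with dots for the estimate, lines for the exact 95% interval, red for above 0, blue for below 0, and grey for intervals that include 0. Pmaip1 is right of 0 in all 3 panels, and the other 5 genes are left of 0 in the panel for Bcl2l1.

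The p53 genes themselves were compared because Bax, Bbc3, and Pmaip1 are targets of p53. Cdkn1a, the p21 cell cycle inhibitor, was at 51.2 and 123.5, a difference of 1.27 with an interval from 1.22 to 1.33. Mdm2, the ligase that limits p53, was at 34.7 and 61.3, a difference of 0.82 with an interval from 0.76 to 0.88. Trp53, the gene of p53, was at 50.1 and 48.4, a difference of -0.05 whose interval from -0.12 to 0.02 includes 0. The value of Pmaip1, 1.18, thus lay between those of Cdkn1a and Mdm2, and those of Bax, 0.28, and Bbc3, -0.06, lay below both. The interval of Pmaip1, from 0.97 to 1.46, contains that of Cdkn1a, so the order of Pmaip1 and Cdkn1a was within counting error.

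Other genes of the BCL2 family were read from fixed lists. Of 5 other pro-death genes, only Bok, an effector-like gene, passed the filter, at 8.72 and 10.5 with a difference of 0.27 (interval 0.09 to 0.46). Bmf, Bik, Hrk, and Bcl2l14 did not reach an FPKM of 1 in either library, on at most 69 fragments, and their intervals included 0. Of 5 other pro-survival genes, 3 passed the filter. Bcl2l2, which encodes BCL-W, was at 8.41 and 9.61, a difference of 0.19 with an interval from 0.07 to 0.31. Bcl2a1b, one of a group of near-identical genes known from blood cells, was at 12.5 and 17.7, a difference of 0.49 with an interval from 0.28 to 0.71. Its copies Bcl2a1d, at 1.65 and 1.81, and Bcl2a1a, at 0.907 and 0.503, had intervals that included 0, and how the counting divided fragments among the copies is not known, so all 3 values are uncertain. Bcl2l10 had 0 fragments without radiation, which allows an FPKM of up to 0.0800, and 1 fragment after it. The macrophage markers, whose cells are known to express these genes, had a median difference of 0.44, and the part of macrophages in the value of Bcl2a1b was not tested.

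With these genes added the summed ratio of 12 pro-death to 8 pro-survival genes was 1.32 and 1.26, a log2 change of -0.06 with an interval from -0.13 to 0.01. The pro-survival sum includes Bcl2a1a, Bcl2a1b, and Bcl2a1d, whose values are uncertain as stated above. Among 5 further family genes whose role in death is debated, 4 passed the filter. Bnip3, a mitochondrial gene of mitophagy that hypoxia induces, was at 49.8 and 36.9, a difference of -0.43 with an interval from -0.51 to -0.35. Its relative Bnip3l was at 28.5 and 27.0, a difference of -0.08 with an interval from -0.15 to -0.01. Bcl2l12 and Bcl2l13 had intervals that included 0, and Bcl2l15 was under the filter.

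Genes that act beside or after the BCL2 family were read from further lists. Of 20 genes for the apoptosome, released proteins, and outer membrane channels, the caspases, and the inhibitors of apoptosis, 0 differed by 0.5 or more in either direction, where 4.31% of the kept genes were higher and 1.44% lower by that amount, so a count of 0 does not set these genes apart. Their median difference was -0.035. The range ran from -0.26, for Endog, a mitochondrial nuclease, at 3.58 and 2.97 with an interval that includes 0, to 0.17, reached by Vdac2. Vdac2 encodes the outer membrane channel that holds BAK, and it was at 140.9 and 158.6, with an interval from 0.13 to 0.21. Apaf1, the scaffold of the apoptosome, was at 8.96 and 9.55, a difference of 0.09 with an interval from 0.01 to 0.17. Of the 10 genes for the apoptosome, released proteins, and channels, 4 had an interval above 0, namely the channels Vdac1 and Vdac2 and the apoptosome genes Apaf1 and Cycs. Another 2 had one below 0, namely Htra2 and Aifm1, both at -0.12. Among all kept genes 23.8% had an interval above 0 and 17.4% below 0, so these counts do not set the list apart.

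The caspases, the proteases that carry out apoptosis, showed no difference detectable by counting. All 5 intervals included 0, and the median difference was -0.04. Among all kept genes 23.8% had an interval above 0 and 17.4% below 0, so most kept genes also had an interval that included 0. The 5 inhibitors of apoptosis proteins all had a lower value in the irradiated library, as did 4947 of the 11253 kept genes. Their differences ran from -0.10 to -0.03, with a median of -0.05. Birc6 alone among them had an interval below 0, from -0.13 to -0.05, and Birc3 had the largest difference, -0.10 with an interval from -0.24 to 0.03.

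Regulators of the members formed the last list. Of 7 genes listed, 5 passed the filter and 0 differed by 0.5 or more, beside 4.31% higher and 1.44% lower among the kept genes. An interval that excluded 0 was found for 2 (Foxo3 above and Huwe1 below), beside 23.8% above and 17.4% below among the kept genes. Foxo3, a transcription factor known to induce Bcl2l11 and Bbc3, was at 6.18 and 6.96, the largest difference of the list at 0.17 with an interval from 0.02 to 0.32. The intervals of Bcl2l11 and Bbc3, given above, included 0, and a link of either gene to Foxo3 was not tested. Huwe1, a ubiquitin ligase of MCL1, was at 25.4 and 23.3, a difference of -0.12 with an interval from -0.15 to -0.09. Usp9x, the enzyme that removes ubiquitin from MCL1, was at 27.2 and 27.0 with an interval that includes 0. The p53 relatives Trp63 and Trp73 had at most 6 fragments in either library.

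**Figure D5:**
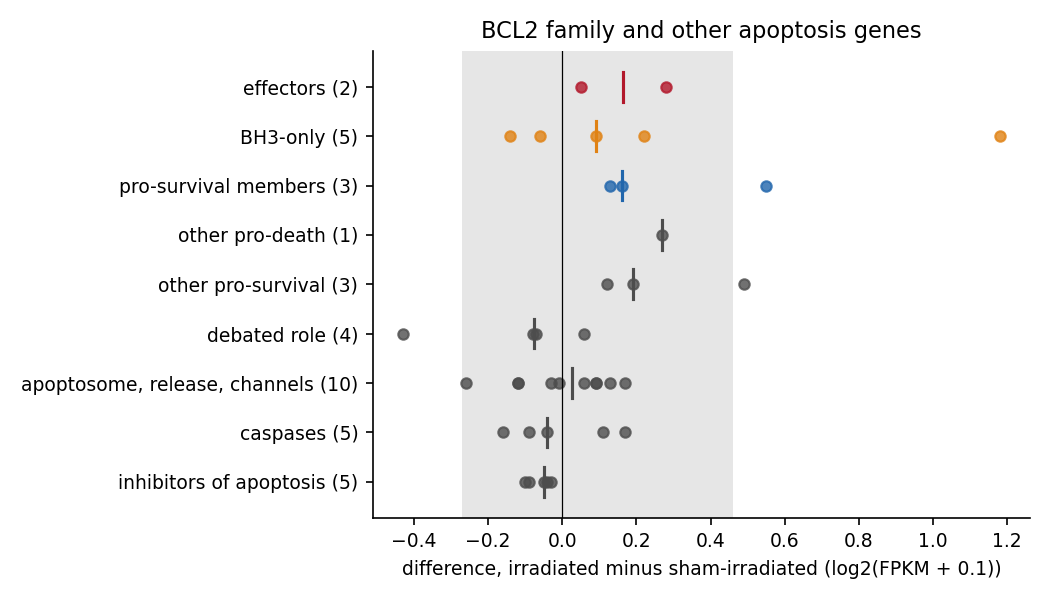
Difference of each kept gene (dots) in the classes of members and in the fixed lists of other family and apoptosis genes, with a vertical bar at the median, the number of kept genes in brackets, and a grey band from the 5th to the 95th percentile of all kept genes. The dots of the caspases, the inhibitors of apoptosis, and the apoptosome genes lie within the band, and Pmaip1, Bcl2l1, and Bcl2a1b lie right of it, with Bnip3 left of it.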

How the data were processed

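RNA sequencing of 2 libraries, sham-irradiated and irradiated, was analysed, and samples were assigned from their treatment labels. The table the authors deposited holds the log2 of FPKM after 0.1 was added, kept to 2 decimals, and the length of each gene. The build is mm10 per the submitters' processing notes. The sources used here give no aligner, counting tool, or strand setting. FPKM was recovered by removing the logarithm and the 0.1. The total of each library was taken as the value that brought low genes closest to whole fragments, and all 2570 and 2519 genes used lay within 0.12 of a whole number. Fragments of high genes are approximate, because rounding moves a difference by up to 0.01. The fragment recovery and the intervals were tested on simulated data. PCR copies are not independent molecules.

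The members and lists were chosen with earlier results of these data known. Named genes were the 10 members, in each list the gene furthest from 0, listed genes with a difference of at least 0.5, and Cdkn1a, Mdm2, and Trp53. Single genes of the caspase list are not reported here. Other genes named, and the neighbours that overlap members, were chosen after their values were seen. Alternatives were log2(FPKM + 1), fragment ratios, centring, scaling without the 100 most abundant genes, other filters, a difference of at least 1, and other makeups of the balance. Biopython 1.88, SciPy 1.17.1, numpy 2.4.6, pandas 2.3.3, and matplotlib 3.10.9 were run in Python 3.11.15.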

Additional observations from a re-analysis of the deposited data

How the results depend on the processing

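No paired analysis was possible because there was a single library on each side, which also left no replicate to leave out. Of 40 member differences under other scales, 39 stayed within their counting interval and 0 reversed. The exception was Pmaip1, at 0.94 with log2(FPKM + 1), since a larger added constant shrinks low genes. The fragment ratio is the estimate on which the interval is built, and centring and rescaling shifted all values by about 0.02. Those alternatives could hardly leave the interval, so log2(FPKM + 1) was the only real check among them. The members higher by at least 0.5 were 2 under every scale and filter, and 1 with a difference of at least 1. Among all genes the counts higher and lower by at least 0.5 were 263 and 95 with log2(FPKM + 1), 1324 and 681 without a filter, 186 and 56 with an FPKM of at least 5, and 89 and 42 with a difference of at least 1, against 485 and 162 as reported.

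The log2 change of the balance, -0.04 as reported, was -0.34 without the highest member of each class (Bax and Mcl1) and 0.043 with the BH3-only genes alone. Chosen after the data were seen, it was -0.28 without Mcl1, 0.040 without Bcl2l1, -0.07 without Pmaip1, and -0.13 with the BH3-only genes without Pmaip1. The upper bounds of both changes without Pmaip1 lay within rounding error of 0. Centring shifted each difference by the median of 0.02, and scaling without the most abundant genes by about -0.0166. Of 58 list medians under alternatives, 57 moved by less than the SD of the list. The other, the regulators without a filter, was 0.13. Depth limits Bbc3, with 104 and 114 fragments, more than the other members.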
